A study of Mus musculus with 8 samples.

Results

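The lysyl oxidase family of the mouse has 5 genes, *Lox*, *Loxl1*, *Loxl2*, *Loxl3* and *Loxl4*, and all 5 were taken by gene symbol from the 31053 genes counted in single-cell RNA-seq of SN4741 cells. The cells came in 8 libraries, 4 from cultures held at 37°C in 10% serum and 4 from cultures moved to 39°C in 0.5% serum for 48 hours, beginning 24 hours after passage. Temperature and serum changed together, so their parts cannot be told apart. SN4741, described as a clonal line, carries, in both groups, a temperature-sensitive SV40 T antigen transgene under a tyrosine hydroxylase promoter. The paper reports its karyotype as unstable and mostly triploid, with a chromosome complement that varied from cell to cell. The part of copy number in the contrasts between cells was not tested. The labels give the genotype as WT and the cells as neural precursor cells. No label says that the libraries came from separate cultures, so the spread between these libraries may be technical. The p-values below rest on that spread as the fits share it over genes. They do not measure each gene's own spread between libraries, and very small ones partly follow large counts. The family was chosen because *Loxl1* was among the larger falls at 39°C in these same libraries. Its levels by temperature are therefore given as a description without a test, and tests are kept for contrasts between cells of the same library.

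Lysyl oxidases are secreted, copper-dependent enzymes that oxidise the side chains of lysine and hydroxylysine in collagens and in elastin. The aldehydes that result join into covalent crosslinks, which give fibres of the extracellular matrix their strength. *Lox* and *Loxl1* encode proenzymes with a propeptide that proteases of the BMP1 family remove, whereas *Loxl2*, *Loxl3* and *Loxl4* encode proteins with scavenger receptor cysteine-rich domains ahead of the catalytic domain. Fibroblasts and smooth muscle cells are well known sources of these enzymes.

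The catalytic domain holds histidines that bind the copper. The stretch of coding sequence with these histidines was located by a pattern of residues, histidines among them, that every run must match. Part of the likeness between the runs was therefore fixed in advance, and so short a run does not measure how close the members are. The stretch is given for 4 members from the GENCODE M21 transcripts, 5′ to 3′ on the coding strand, with the histidine codons in capitals.

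Loxl1: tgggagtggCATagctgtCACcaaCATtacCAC

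Loxl2: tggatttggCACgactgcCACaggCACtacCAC

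Loxl3: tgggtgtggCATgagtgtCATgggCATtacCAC

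Loxl4: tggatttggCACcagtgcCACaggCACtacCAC

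Each run has 33 bases and 4 histidine codons, and each crosses an intron, so its ends in the genome lie farther apart than its length. On GRCm38 the *Loxl1* run lies between chr9:58293720-58294381 on the minus strand, the *Loxl2* run between chr14:69682316-69689037 on the plus strand, the *Loxl3* run between chr6:83049995-83050125 on the plus strand and the *Loxl4* run between chr19:42598807-42599899 on the minus strand. *Loxl2* and *Loxl4* shared 31 of the 33 bases. *Loxl3* shared 25 with each of the other 3, while *Loxl1* shared 22 with *Loxl2* and 21 with *Loxl4*. The genes themselves span chr18:52516067-52529867 (*Lox*, minus strand), chr9:58287738-58313186 (*Loxl1*, minus), chr14:69609068-69695834 (*Loxl2*, plus), chr6:83034173-83052562 (*Loxl3*, plus) and chr19:42593982-42612813 (*Loxl4*, minus). The 3′ end of *Loxl3* overlaps *Htra2*, a protein-coding gene on the other strand with 69.3 CPM at 37°C (counts per 1000000 UMIs of a library, scaled by TMM). *Loxl2* overlaps the antisense gene *Gm27177*.

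After cells with over 15% mitochondrial UMIs, under 200 genes or over 6000 genes were left out, 18351 of 19125 cells remained, 985 to 3494 per library with 17166686 to 29633818 UMIs. A UMI (unique molecular identifier) stands for 1 captured transcript molecule. No pair of libraries shared more than 5 cell barcodes. Replicate 1 at 39°C stood apart, with the fewest cells and the highest median depth (16665 UMIs per cell). G1 cells made up 20.6% to 28.7% of the cells at 37°C and 82.5% to 85.4% at 39°C. Of 10 neural precursor markers, *Hes5* was at 0 in all libraries and 6 stayed under 1 CPM (*Sox1*, *Pax6*, *Hes5*, *Fabp7*, *Msi1* and *Prom1*), while the sum of the list was 5883 to 6214 CPM at 37°C and 5657 to 6267 at 39°C, nearly all of it *Vim* (5145 to 5445 and 5002 to 5617). Within that sum *Nes* was lower at 39°C (430 to 538 against 105 to 117), while *Notch1* (201 to 245 against 465 to 484) and *Sox2* (52.0 to 57.2 against 72.6 to 80.7) were higher. The sum of 10 fibroblast and mesenchymal markers ran from 2017 to 2096 CPM at 37°C and from 1099 to 1128 at 39°C, a difference that lay mostly in *Col1a1* and *Col1a2*, while *Twist1* was higher at 39°C (58.3 to 63.9 against 82.1 to 88.4). The sum of 6 smooth muscle markers ran from 298 to 384 and from 34.9 to 50.8. Neuronal markers (6 genes) summed to 165 to 193 and 79.3 to 97.7, with *Rbfox3*, *Snap25* and *Syt1* under 1 in all libraries. Glial, endothelial and immune lists summed to at most 5.48, 1.17 and 36.2 in any library. Marker values are CPM on plain library totals, without TMM. The part of these shifts in the values below was not tested.

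All 5 lysyl oxidase genes were lower at 39°C, and in none did the groups overlap. Of the 15810 genes tested, 28.0% were likewise lower in every 39°C library than in every 37°C library. With 3′ tag counting a transcript gives a UMI whatever its length, so no scaling by length was made. How well the transcripts of each gene are captured was not measured. Orders and shares between genes are therefore those of the UMIs counted. In bulk sums, fewer cells with a transcript and less transcript per cell cannot be told apart.

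*Lox*, the founding member, was the most abundant at both temperatures. It had 75.5, 63.6, 69.4 and 76.4 CPM in replicates 1 to 4 at 37°C and 25.1, 36.1, 37.7 and 38.4 CPM at 39°C. Replicate 1 was the lowest of the 39°C libraries, and the highest 39°C value stayed below the lowest at 37°C. The means were 71.2 ± 5.97 and 34.3 ± 6.20 CPM (SD, n = 4 each), a log2 fold change of -1.04 ± 0.09 (SE) or 2.06-fold lower.

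*Loxl1*, which is tied to the upkeep of elastic fibres, was the rarest member. It had 1.95, 2.25, 2.00 and 2.63 CPM at 37°C (57, 58, 57 and 75 UMIs) and 0.227, 0.492, 0.212 and 0.347 CPM at 39°C (4, 13, 6 and 9 UMIs). The 39°C values rest on few molecules, and a count of 3 UMIs corresponds to 0.101 to 0.175 CPM. The means were 2.21 ± 0.311 and 0.320 ± 0.130 CPM, a log2 fold change of -2.74 ± 0.24 or 6.69-fold lower. *Loxl1* was 164th among the 572 genes called lower, next to *Klra4* (-2.74) above it and *Foxm1* (-2.74), a cell cycle transcription factor, below it.

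*Loxl2*, best known for collagen IV and for effects in tumour cells, had 5.62, 6.78, 6.24 and 6.42 CPM at 37°C and 1.59, 1.17, 1.84 and 1.93 CPM at 39°C. The means of 6.27 ± 0.486 and 1.63 ± 0.338 CPM differed by -1.93 ± 0.13 on the log2 scale, or 3.81-fold. Both groups were tight, and the gap between them was wider than either group's range.

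*Loxl3*, which is needed for palate and spine development, had 4.28, 3.76, 3.86 and 4.32 CPM at 37°C against 1.93, 2.04, 2.44 and 2.74 CPM at 39°C. *Loxl4*, the second most abundant member, had 10.5, 9.50, 10.4 and 9.27 CPM at 37°C against 5.56, 6.32, 6.51 and 5.82 CPM at 39°C. These were the smaller differences of the family, at -0.81 ± 0.12 (1.75-fold lower) for *Loxl3* and -0.70 ± 0.08 (1.63-fold lower) for *Loxl4*.

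**Figure D1:**
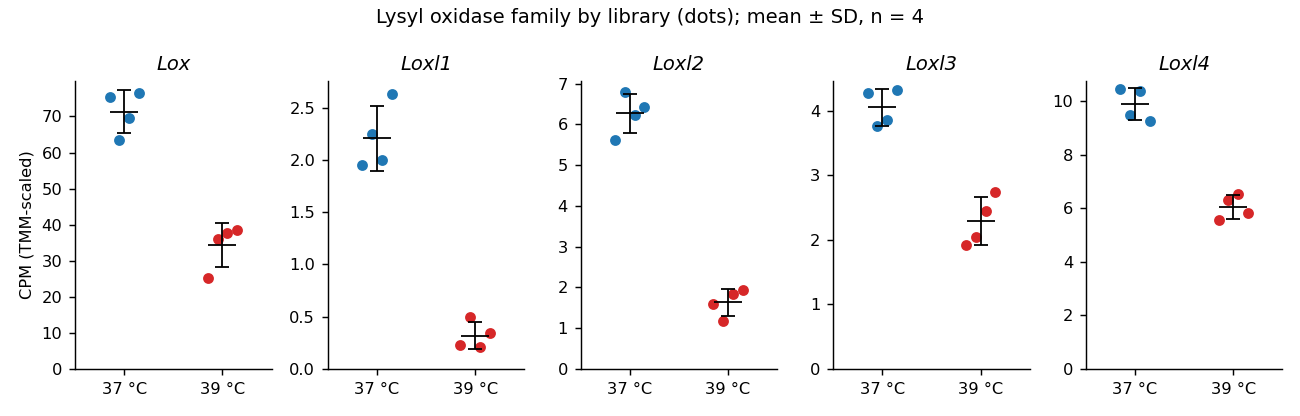
TMM-scaled CPM of each lysyl oxidase gene in the 8 libraries, by temperature, on linear axes that start at 0, with 1 point per library and the mean and SD of each group (n = 4) as bars. Every 39°C library lies below every 37°C library for all 5 genes, with the largest fold difference for *Loxl1* (2.21 against 0.320 CPM) and the smallest for *Loxl4* (9.90 against 6.05 CPM).

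Across all genes, edgeR's quasi-likelihood test was called where the adjusted p was under 0.01 and expression differed by over 1.5 on the log2 scale. Past both limits were 2 of the 5 members, *Loxl1* and *Loxl2*, where 5.83% of all genes were called. Since the same contrast led to the choice of the family, nothing is read from that count. The median log2 fold change was -1.04 over the members and 0.02 over all genes tested. Within cells assigned to G1 alone, the log2 fold changes were -1.19 for *Lox*, -2.83 for *Loxl1*, -1.59 for *Loxl2*, -1.26 for *Loxl3* and -0.95 for *Loxl4*. All 5 kept their sign, and *Loxl2* was the member that came nearer to 0.

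At 37°C the order of levels was *Lox*, *Loxl4*, *Loxl2*, *Loxl3* and *Loxl1*, and no 2 neighbours in that order overlapped across libraries. At 39°C *Loxl3* (2.29 ± 0.371 CPM) came before *Loxl2* (1.63 ± 0.338 CPM), and the highest *Loxl2* value and the lowest *Loxl3* value were both 1.93 CPM. The summed level of the family was 93.7 ± 6.06 CPM at 37°C and 44.6 ± 6.92 CPM at 39°C. *Lox* made up 76.0% of that sum at 37°C and 76.7% at 39°C. The share of *Loxl1* was 2.36% and 0.717%, that of *Loxl2* 6.73% and 3.71%, that of *Loxl3* 4.33% and 5.15%, and that of *Loxl4* 10.6% and 13.8%.

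To compare cells of unequal depth, each cell was thinned at random to 5000 UMIs, which left out shallower cells and kept 7882 cells at 37°C and 8133 at 39°C. *Lox* was found in 23.3% ± 2.68 of the thinned cells at 37°C and in 12.7% ± 2.02 at 39°C. *Loxl4* followed with 4.72% ± 0.542 and 2.76% ± 0.248. *Loxl2* was found in 2.54% ± 0.234 and 0.648% ± 0.165 of cells, *Loxl3* in 1.66% ± 0.325 and 1.09% ± 0.266, and *Loxl1* in 0.771% ± 0.188 and 0.114% ± 0.108. Without thinning the *Lox* shares were 41.3% and 22.8%, and those of *Loxl1* 2.80% and 0.343%. No cells known to lack these genes were set apart, so the share that free RNA gives was not measured. At 5000 UMIs, 69.7% of cells at 37°C and 82.7% at 39°C had no UMI of any member. Molecules of 2 members were seen in 230 cells and of 3 members in 11 cells at 37°C, against 54 cells and 1 cell at 39°C, and no cell had more.

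Of the fibrillar collagens that lysyl oxidases crosslink, *Col1a1*, *Col1a2* and *Col3a1* were also lower at 39°C. Other fibrillar chains went both ways, with log2 fold changes of -0.61 for *Col5a1*, -0.39 for *Col5a2*, -0.14 for *Col2a1*, -0.63 for *Col11a1* and 0.31 for *Col5a3*. *Col1a1* went from 1027 ± 24.1 to 575 ± 11.2 CPM (log2 fold change -0.84 ± 0.05), *Col1a2* from 678 ± 11.4 to 182 ± 6.97 CPM (-1.90 ± 0.05) and *Col3a1* from 11.9 ± 0.646 to 1.01 ± 0.467 CPM (-3.48 ± 0.15). Of these, *Col1a1* stayed under the limit of 1.5 set above. These 3 genes were used to ask whether cells with collagen transcripts also held more lysyl oxidase transcripts within the same library, a contrast that the choice of the family did not use. Counts were summed per library over cells with and without a UMI of the 3 genes and tested with edgeR, with the library as a block and p-values adjusted over all genes tested. The 3 genes were left out of these tests. In thinned cells, CPM is the count per 1000000 UMIs of those cells, without scaling.

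At 39°C, 6957 cells had a collagen UMI at 5000 UMIs per cell and 1176 had none, 146 to 361 per library. *Lox* stood at 28.6, 35.6, 35.4 and 39.5 CPM in cells with collagen UMIs of replicates 1 to 4 and at 2.74, 16.1, 11.2 and 13.3 in cells without. It was higher in cells with collagen UMIs in 4 of 4 libraries, and the highest value without lay below the lowest value with. The means were 34.8 ± 4.50 and 10.8 ± 5.75, and edgeR's log2 fold change was 1.56 ± 0.15 (adjusted p = 4.06e-22). Such fold changes are fitted over the libraries and need not equal the ratio of the means, here and below. *Loxl3* was also called, at 2.40 ± 0.715 against 1.11 ± 1.18 CPM (fitted 1.53 ± 0.60, edgeR adjusted p = 0.0446, higher in 3 of 4 libraries). In replicate 1 it was lower with collagen UMIs, at 1.74 against 2.74 CPM. Cells without collagen gave only 5 *Loxl3* UMIs in all, and the call was lost without replicate 2, 3 or 4 (adjusted p = 0.0641, 0.342 and 0.284).

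*Lox* and *Loxl3* made 2 of 5 members called in this contrast, where 25.0% of all genes were called, and DESeq2 called *Lox* alone. *Loxl1* had 11 UMIs in the cells with collagen and 0 in the cells without, and was not called (edgeR adjusted p = 0.314). *Loxl2* gave -0.15, with a 95% interval from -1.3 to 1.01, and *Loxl4* gave 0.33, from -0.25 to 0.90. Neither was called (edgeR adjusted p = 0.909 and 0.482), and the intervals leave room for sizeable differences in either direction for *Loxl2*.

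At 37°C nearly every cell held collagen transcripts, and only 140 of 7882 cells had none at 5000 UMIs, under 50 in each library. The contrast was therefore made at 2000 UMIs per cell, where 838 cells had no collagen UMI, 144 to 265 per library, and 7593 had at least 1. *Lox* stood at 74.1, 59.6, 69.9 and 76.8 CPM with collagen and at 20.8, 14.0, 20.8 and 26.0 without. The separation was complete, with means of 70.1 ± 7.55 and 20.4 ± 4.94 and a difference of 1.81 ± 0.20 on the log2 scale (edgeR adjusted p = 3.37e-16). Split by *Col3a1* alone at 5000 UMIs, which 37°C cells allow, the *Lox* difference was 0.65 and was called. Nearly all cells without *Col3a1* then held *Col1a1* or *Col1a2* UMIs, so 0.65 and 1.81 compare unlike cells at unlike depths. In the contrast by all 3 genes at 2000 UMIs, *Lox* was the 1 member of 5 called, where 4.92% of all genes were called. *Loxl1* had 28 UMIs with collagen and 0 without (adjusted p = 0.286), and *Loxl2* was at 5.39 ± 1.97 against 1.81 ± 2.10 CPM (1.62, 95% interval 0.14 to 3.10, adjusted p = 0.274). *Loxl3* and *Loxl4* gave 0.70 (-0.78 to 2.17) and 0.84 (-0.03 to 1.71). The direction of *Loxl4* turned with depth: it was higher with collagen in 4 of 4 libraries at 2000 UMIs and in 0 of 4 at 5000 UMIs, where it stood at 9.70 ± 0.851 with and 16.9 ± 5.11 without, the latter on 12 UMIs.

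At the same 2000 UMIs, *Lox* differed by 1.15 ± 0.14 at 39°C. The difference of the collagen contrast between temperatures was -0.66 ± 0.28 for *Lox* and was not called (edgeR adjusted p = 0.387). None of the 5 members was called for this difference by edgeR, 1 had an unadjusted p under 0.05, DESeq2 called 0 and gave none of the 5 an adjusted p, and 0.924% of all genes were called. Cells with collagen UMIs were also deeper before thinning: the library medians averaged 11616 UMIs with and 9697 without at 39°C, and 13196 with and 9746 without at 37°C (2000 UMIs). G1 shares were close, at 84.8% and 83.8% at 39°C and 23.9% and 23.3% at 37°C. Mitochondrial shares were lower with collagen UMIs in all 8 libraries, at 8.25% and 8.53% at 39°C and 7.61% and 8.00% at 37°C (means of library medians, with and without). The part of depth and mitochondrial share in the contrast was not tested beyond the thinning.

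A comparison chosen after the data were seen did not depend on the few 37°C cells without collagen. Cells of each library at 5000 UMIs were ranked by their collagen UMIs, and those at or above the upper tertile were set against those at or below the lower one. Cells between these limits were left out. At 37°C collagen-high cells had at least 9 or 10 collagen UMIs and collagen-low cells at most 5 or 6. At 39°C the limits were 4 and 2. Ties made the classes larger than a tertile: 2835 high and 2976 low cells at 37°C, and 3425 and 3598 at 39°C.

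At 37°C, 4 of 5 members were called, all higher in collagen-high cells, where 19.4% of all genes were called in either direction. *Lox* stood at 105, 79.9, 92.9 and 110 CPM in collagen-high cells and at 31.0, 26.2, 28.6 and 42.7 in collagen-low cells, so every high value exceeded every low one (log2 fold change 1.60 ± 0.07, edgeR adjusted p = 2.99e-98). *Loxl3* differed by 1.49 ± 0.32 (4.96 ± 1.24 against 1.87 ± 0.311 CPM, edgeR adjusted p = 6.03e-05), and *Loxl2* by 1.09 ± 0.26 (6.74 ± 0.873 against 3.08 ± 1.26, edgeR adjusted p = 0.000407). Both were higher in 4 of 4 libraries. *Loxl1* differed by 1.33 ± 0.49 on 34 against 14 UMIs (edgeR adjusted p = 0.0384, higher in 4 of 4 libraries), and the call was lost without replicate 1, 2 or 4 (adjusted p = 0.322, 0.0837 and 0.114). *Loxl4* was not called, at 9.07 ± 1.5 and 9.63 ± 0.353 CPM (-0.04, 95% interval -0.38 to 0.31, adjusted p = 0.929). DESeq2 called 2 of the 5.

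At 39°C, 3 of 5 members were called, all higher in collagen-high cells, where 30.8% of all genes were called. *Lox* stood at 35.9, 47.2, 48.6 and 54.9 CPM in collagen-high and 13.3, 20.1, 16.7 and 19.1 in collagen-low cells (1.41 ± 0.09, edgeR adjusted p = 1.01e-49). *Loxl3* differed by 1.12 ± 0.34 (3.32 ± 0.527 against 1.49 ± 0.266, edgeR adjusted p = 0.00429), with no overlap between the states. *Loxl1* had 9 UMIs in collagen-high and 0 in collagen-low cells (edgeR adjusted p = 0.00713). The call was lost without replicate 2 or 4 (adjusted p = 0.077 and 0.0618). Its pooled level in collagen-high cells, 0.526 CPM, was 3.15-fold a floor of 3 counts over the collagen-low cells. The 95% interval of that level from counting alone (Poisson) was 0.240 to 0.998 CPM, so 3.15 is not a lower bound. *Loxl2* (0.44, 95% interval -0.39 to 1.28) and *Loxl4* (0.15, -0.26 to 0.56) were not called, and DESeq2 called *Lox* alone.

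**Figure D2:**
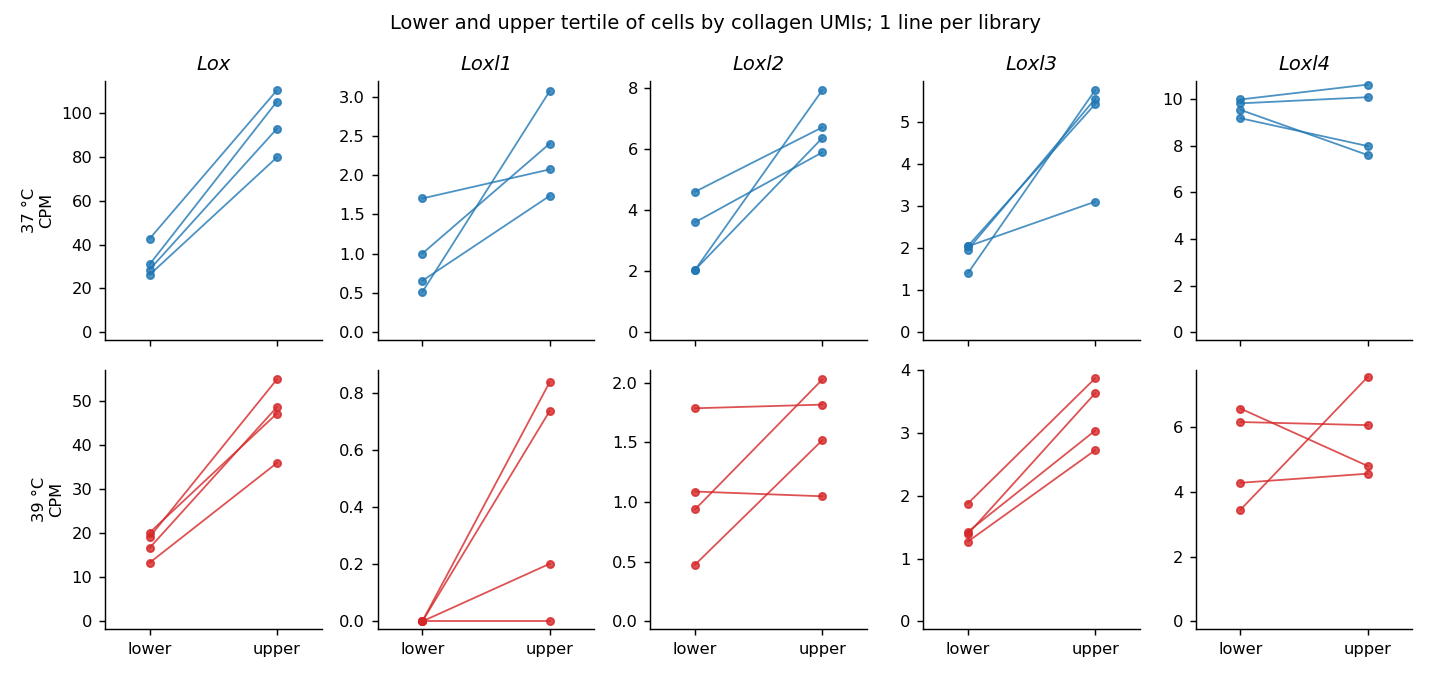
CPM of each lysyl oxidase gene in the upper and lower collagen tertiles of the same library, with 1 line per library, in cells thinned to 5000 UMIs at 37°C and 39°C. The *Lox* lines all climb steeply (32.1 to 97.1 CPM at 37°C and 17.3 to 46.7 at 39°C), whereas the *Loxl4* lines run in both directions (9.63 and 9.07 at 37°C).

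The difference of the tertile contrast between temperatures was called for 0 of 5 members by edgeR (1 at an unadjusted p under 0.05, and 0 by DESeq2, which gave 4 of them no adjusted p), where 8.95% of all genes were called. For *Lox* it was -0.19, with a 95% interval from -0.44 to 0.06. Other quantities moved with the tertiles as well. Before thinning, collagen-high and collagen-low cells had 15771 and 11108.5 UMIs at 37°C and 12405.5 and 10287 at 39°C (means of library medians). G1 shares were 28.8% and 20.3% at 37°C and 86.8% and 83.1% at 39°C, and mitochondrial shares 7.36% and 7.84%, and 8.04% and 8.48%. Their part in the contrast was not tested.

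With cells grouped by their number of collagen UMIs, *Lox* climbed step by step at both temperatures. At 37°C it stood at 16.6 ± 10.7 CPM in cells with 0 collagen UMIs, 23.3 ± 7.46 with 1 to 3, 46.9 ± 4.72 with 4 to 7, and 84.5 ± 12.7 with 8 to 15. At 39°C the same steps gave 10.8 ± 5.75, 23.2 ± 1.67, 40.3 ± 6.01 and 61.1 ± 13.8. The *Lox* means were 23.3 and 23.2 at 1 to 3 collagen UMIs and lay farther apart at 8 to 15, while cells with 16 or more had 120 ± 12.3 at 37°C and 138 ± 56.2 at 39°C, the latter from 45 cells. Each step is a range, so cells of 1 step need not have equal collagen counts at both temperatures. *Loxl3* gave close means at both temperatures at 4 to 7 collagen UMIs (2.52 ± 0.340 and 2.73 ± 0.338) and at 8 to 15 (4.49 ± 1.28 and 4.74 ± 1.06). At 1 to 3 it had 1.97 ± 0.488 and 1.51 ± 0.917, and at 0 collagen UMIs 0 and 1.11 ± 1.18, the latter on 5 UMIs. *Loxl1* had 0, 0.181, 1.52 and 2.31 CPM in the steps up to 8 to 15 at 37°C. At 39°C *Loxl1* had 0, 0.0935, 0.468 and 0.420, on at most 7 UMIs in a step. *Loxl2* kept apart: cells with 4 to 7 collagen UMIs had 4.50 ± 1.25 at 37°C and 1.11 ± 0.633 at 39°C, and those with 8 to 15 had 6.93 ± 0.691 and 3.03 ± 1.37. *Loxl4* did not climb: at 37°C the steps gave 16.9 ± 5.11 (12 UMIs in the 140 cells without collagen), 10.3 ± 1.80, 9.36 ± 1.22 and 9.89 ± 1.53, and at 39°C 4.57 ± 4.16, 5.98 ± 0.256, 6.15 ± 1.62 and 4.49 ± 1.84. These steps are a description, since collagen itself differed between temperatures and no test was made of them.

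**Figure D3:**
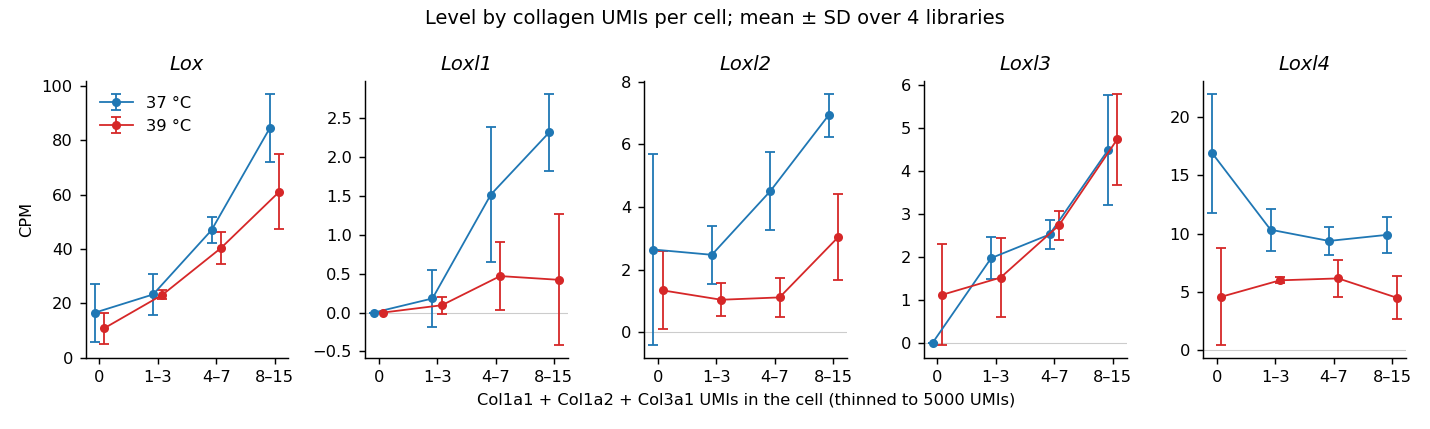
CPM of each lysyl oxidase gene in cells with 0, 1 to 3, 4 to 7 and 8 to 15 collagen UMIs (thinned to 5000 UMIs), as the mean and SD (bars) over the 4 libraries of each temperature; bars of rare genes reach below 0. *Lox* climbs from 16.6 to 84.5 at 37°C and from 10.8 to 61.1 at 39°C, the *Loxl3* means of both temperatures nearly coincide at 4 to 7 (2.52 and 2.73), and the *Loxl2* means stay apart.

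Cells in S or G2M phase were compared with G1 cells of the same library, since phase shares differed so widely between temperatures. The phase calls rest on transcripts of cycle genes in each cell, and the part of free RNA in them was not tested. At 37°C, 6066 cells were in S or G2M and 1816 in G1, with 13855 and 11600 UMIs before thinning (means of library medians). *Loxl3* was lower in S and G2M cells, at 3.41, 2.77, 1.96 and 3.21 CPM against 5.67, 5.36, 4.23 and 6.45 in G1 cells of replicates 1 to 4 (log2 fold change -0.87 ± 0.29, edgeR adjusted p = 0.00984). *Loxl4* was lower too, at 9.35, 7.34, 8.76 and 9.83 against 14.3, 12.9, 13.2 and 11.6 (-0.50 ± 0.17, edgeR adjusted p = 0.0144). In both genes every S and G2M value lay below every G1 value. These were 2 of 5 members called, where 31.8% of all genes were called, and DESeq2 called neither (adjusted p = 0.0741 and 0.108). The *Loxl3* call was lost without replicate 4 (adjusted p = 0.0608) and the *Loxl4* call without replicate 1 or 2 (0.0931 and 0.0716).

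*Lox* (-0.16, 95% interval -0.30 to -0.02, adjusted p = 0.0695), *Loxl1* (1.00, -0.12 to 2.12) and *Loxl2* (0.31, -0.21 to 0.83) were not called between phases at 37°C. At 39°C, with 1263 cells in S or G2M and 6870 in G1, edgeR called 0 of 5 members, none had an unadjusted p under 0.05, DESeq2 called 0, and 31.0% of all genes were called. *Loxl3* was then at 2.62 ± 0.936 and 2.15 ± 0.476 CPM and *Loxl4* at 5.48 ± 0.632 and 5.67 ± 0.753. The difference of the phase contrast between temperatures was 1.16 ± 0.51 for *Loxl3* (edgeR adjusted p = 0.171). Again 0 of 5 were called for this difference (1 at an unadjusted p under 0.05, and 0 by DESeq2, which gave 4 of them no adjusted p), where 7.46% of all genes were called.

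**Figure D4:**
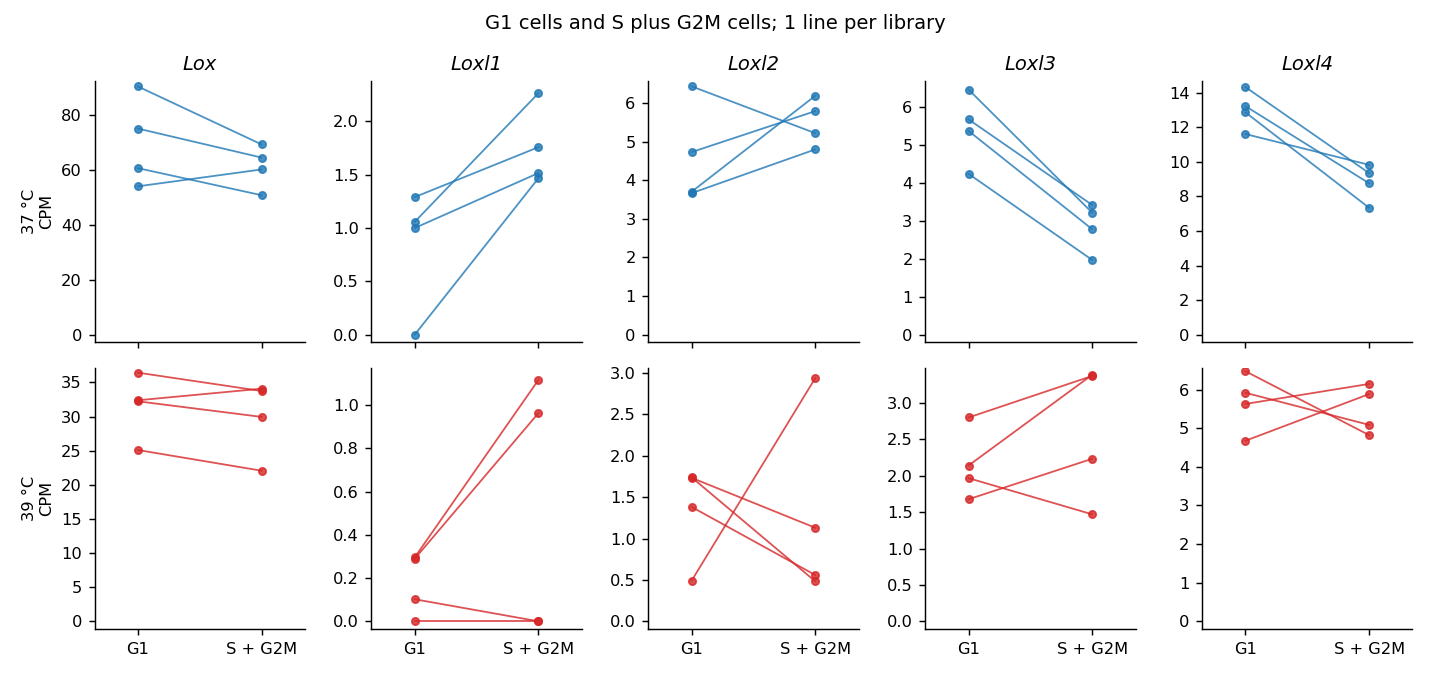
CPM of each lysyl oxidase gene in G1 cells and in S and G2M cells of the same library, with 1 line per library, in cells thinned to 5000 UMIs. All *Loxl3* and *Loxl4* lines descend at 37°C (means 5.43 to 2.84 and 13.0 to 8.82), while at 39°C their lines run in both directions.

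The genes that work with lysyl oxidases were followed in 6 lists. Of 25 tested crosslink substrates and elastic fibre genes, 2 fell at 39°C by the thresholds above (*Col1a2* and *Col3a1*, given above) and 1 rose, the latent TGF-beta binding protein gene *Ltbp2* (0.285 to 0.909 CPM, log2 fold change 1.62 ± 0.28). Over all genes 2.21% rose and 3.62% fell by these thresholds. Whatever the size of the fold, 12 of the 25 were lower and 5 higher where edgeR's adjusted p was under 0.05. The share of all genes at that looser limit is not given here, so nothing is read from these counts. In 56.7% of all genes tested the 2 temperature groups did not overlap, in either direction. The list's median was -0.60, against 0.02 over all genes. Of 12 genes for processing of prolysyl oxidase and procollagen, 1 fell, the BMP1-like protease gene *Tll1* (1.16 to 0.258 CPM, -2.22 ± 0.26), and the median was 0.14. Of 6 other amine oxidases, 1 fell, *Aoc3* (0.426 to 0.0238 CPM, -4.11 ± 0.62), and the median was -0.40. By edgeR, 0 of 19 genes of procollagen hydroxylation and folding, 0 of 9 of copper supply and 0 of 18 of TGF-beta and Snail signalling passed. In these lists 13, 8 and 17 genes had an unadjusted p under 0.05, and DESeq2 called 0 in each, with medians of -0.19, 0.14 and 0.45. The share of all genes with an unadjusted p under 0.05 is likewise not given, so those counts mark no trait of the lists.

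In cells with collagen UMIs at 39°C, 11 of 18 substrate and elastic fibre genes were higher and 2 lower (median 0.61, against 0.04 over all genes, of which 12.6% were higher and 12.3% lower). *Emilin1*, an elastic fibre glycoprotein gene, was higher by 1.96 ± 0.24, the microfibril gene *Fbn1* by 1.52 ± 0.12, and *Fbln5*, which helps place *Loxl1* protein on elastic fibres, by 1.44 ± 0.08. *Col5a3* (-0.72 ± 0.12) and *Fbln2* (-0.33 ± 0.09) were lower. Of 9 processing genes 5 were higher and 1 lower. The median of 0.82 is the value of *Tll1* (SE 1.545), which was not called and had 0.258 CPM at 39°C. Of the 5 higher genes, *Postn* (5.15 ± 2.00) was rare as well, at 0.611 CPM. The others included *Thbs1* (1.55 ± 0.09) and the procollagen C-proteinase enhancer genes *Pcolce* (1.30 ± 0.06) and *Pcolce2* (1.25 ± 0.20). *Bmp1*, whose protease cuts the *Lox* propeptide, was lower by -0.30 ± 0.09. Of 19 hydroxylation genes 4 were higher and 1 lower (median 0.11), with *Plod1* at 0.60 ± 0.17 and *Plod2* at -0.73 ± 0.06, a pair of lysyl hydroxylases that moved in opposite directions. Of 9 copper genes 2 were higher and 4 lower (median -0.18). *Steap2*, a metalloreductase gene, gave 1.08 ± 0.20, and the copper chaperones *Ccs* and *Atox1* gave -0.60 ± 0.06 and -0.33 ± 0.04. TGF-beta and Snail genes were higher in 8 and lower in 3 of 18 (median 0.11), with *Tgfb3* at 1.04 ± 0.24 and the receptor gene *Tgfbr2* at 0.90 ± 0.10, against *Tgfbr1* at -0.59 ± 0.15. In the amine oxidase list 1 gene was higher (*Maoa*, 0.21 ± 0.07) and 1 lower (*Smox*, -0.56 ± 0.18) of 5.

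At 37°C (2000 UMIs) 3.14% of all genes were higher and 1.78% lower. In cells with collagen UMIs, 5 of 18 substrate genes were higher and 0 lower, with *Fbn1* at 1.51 ± 0.15, *Col5a1* at 0.77 ± 0.17 and *Col5a2* at 0.51 ± 0.06. Of 9 processing genes 4 were higher and 0 lower, including *Pcolce2* (1.84 ± 0.53) and the fibronectin gene *Fn1* (0.82 ± 0.10). Of 19 hydroxylation genes 2 were higher, *P3h4* (0.60 ± 0.11) and the collagen chaperone gene *Serpinh1* (0.35 ± 0.06). In the copper list 2 of 9 were lower, among them the metallothionein gene *Mt1* (-0.33 ± 0.05), and of 18 TGF-beta and Snail genes 1 was higher, *Tgfbr2* (0.64 ± 0.13). Of 4 amine oxidases edgeR called 0, with 2 at an unadjusted p under 0.05 and 0 called by DESeq2. The medians were 0.26, 0.82, 0.19, -0.06, 0.29 and -0.25 in the order of the lists, against 0.03 over all genes.

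Between collagen tertiles the substrate list had 12 of 18 genes higher and 0 lower at 37°C, and 12 higher and 3 lower at 39°C. Over all genes 10.3% were higher and 9.13% lower at 37°C, and 13.6% higher and 17.2% lower at 39°C. Processing genes were higher in 5 and lower in 0 of 9 at 37°C, and higher in 6 and lower in 1 at 39°C. Hydroxylation genes were higher in 8 and lower in 0 of 19 at 37°C, and higher in 7 and lower in 1 at 39°C. Copper genes were higher in 0 and lower in 3 of 9 at 37°C, and higher in 1 and lower in 5 at 39°C. TGF-beta and Snail genes were higher in 7 and lower in 0 of 18 at 37°C, and higher in 8 and lower in 4 at 39°C, and amine oxidases lower in 1 of 6 at each temperature. *Fbn1* differed by 1.33 ± 0.06 at 37°C and 1.46 ± 0.07 at 39°C. The medians of the lists, in the order just given, were 0.30, 0.82, 0.20, -0.05, 0.17 and 0.14 at 37°C and 0.48, 0.38, 0.11, -0.28, 0.16 and 0.24 at 39°C, against -0.01 over all genes at both.

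Across the 8 libraries, the genes whose log2(CPM + 1) followed that of *Lox* most closely included *2310039H08Rik* (Pearson r = 0.998), *Rex1bd* (0.996), *Trappc1* and *Mrps14* (0.994), of 8708 genes with at least 10 CPM at a temperature. With the temperature means removed, the closest were *Cda* (0.989), *Ext1*, *Suox*, *1110008P14Rik* and *Rpl12* (0.986). These values describe 8 libraries, each with 1 depth for all its genes. For *Loxl1*, the highest mean correlation over cells within the 37°C libraries was 0.0486, with *Phgdh*, over 6067 genes and 7882 cells, which is too weak in such sparse counts to be a finding.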

How the data were processed

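Droplet libraries (Chromium 3′ V3) were made from SN4741 cells, 4 at 37°C and 4 at 39°C. Per the submitters' processing notes the authors aligned reads with Cell Ranger 3.0.1 to mm10 and deposited raw UMI counts per gene and cell, as whole numbers without normalization. Transcripts of the T antigen were not analysed here.

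Cells were kept at up to 15% mitochondrial UMIs and 200 to 6000 genes. No doublet caller was run. Positions and sequences came from GENCODE M21 on GRCm38 (30934 of 31053 gene IDs matched). Counts were summed per library, or per library and state after each cell was thinned to 5000 UMIs. Sums from under 50 cells were not fitted, which at 37°C left no cells-without-collagen sum at 5000 UMIs, so 2000 UMIs, planned as an alternative, were used for that contrast and its difference between temperatures. Genes averaging 1 count or more per sum were tested with edgeR 4.0.16 in R 4.3.3 (TMM, glmQLFit, glmQLFTest, Benjamini-Hochberg adjustment over all genes tested), with the library as a block in contrasts between states, which were called at an adjusted p under 0.05. Standard errors were derived from the F statistic (log2 fold change over root F), and 95% intervals are 1.96 SE either side. Phases were assigned with Seurat 5.3.0 (94 of 97 cycle genes found), and these genes were left out of the phase tests.

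The members, lists and tests were chosen with earlier results of these data known. Named were the members, called list genes with the largest changes at 10 CPM or more (up to 3 per direction), and the genes most like a member, of which 1 is not reported here. *Ltbp2*, *Tll1* and *Aoc3*, under that level, were named after their values were seen. In simulated temperature data with 15518 genes tested, 84.2% of genes changed by 2 on the log2 scale were called, and 0 of 97 changed by 1, which is under the limit of 1.5. Alternatives were other scalings, filters, depths, DESeq2 1.42.0, other collagen and phase definitions, the replicate block and leaving out each library.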

Additional observations from a re-analysis of the deposited data

Results flagged for a closer look

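At 37°C the share of cells with a *Loxl2* UMI, in cells thinned to 5000 UMIs, was 2.20% in replicate 1 against 2.63% to 2.71% in the other 3 libraries. The gap of that library to its nearest neighbour was 0.836 of the range of the 4 libraries, above Dixon's 95% critical value for 4 samples. In all, 20 groups of 4 libraries (5 genes, 2 temperatures and 2 measures) were examined, of which chance flags about 1 in 20.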

How the results depend on the processing

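The log2 fold changes of all 5 members between temperatures kept their sign under every alternative run. In G1 cells alone the number of genes called was 374 and the values were -1.59 for *Loxl2*, -1.26 for *Loxl3* and -0.95 for *Loxl4*. The same replicate numbers at both temperatures did not deviate together (correlations of deviations from -0.12 to 0.29 over 8358 genes), so they were not treated as pairs. With the replicate block 878 genes were called in place of 921, and *Loxl1* gave -2.76 and *Loxl2* -1.94.

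Shares of cells with a UMI followed the depth by construction. At 2000 UMIs they were 11.2% at 37°C and 5.59% at 39°C for *Lox*, 0.990% and 0.299% for *Loxl2*, 0.725% and 0.402% for *Loxl3*, 1.96% and 1.2% for *Loxl4*, and 0.352% for *Loxl1* at 37°C. Without thinning they were 41.3% and 22.8% for *Lox*, 2.80% and 0.343% for *Loxl1*, 7.06% and 1.71% for *Loxl2*, 4.85% and 2.38% for *Loxl3*, and 12.02% and 6.30% for *Loxl4*.

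The calls for *Lox* between cells with and without collagen UMIs, and between tertiles, held under every alternative that could be run. The rarer members were less stable, and the cause was not tested. With against without collagen UMIs at 39°C, *Loxl3* lost its call without a filter on low counts (1.53), with DESeq2 (1.44) and at 2000 UMIs (1.08), and ranged from 1.00 to 2.13 with a library left out. *Loxl2* turned positive with DESeq2 (0.039) and without thinning (0.76) and ranged from -0.50 to 0.22 with a library left out, *Loxl1* turned negative at 2000 UMIs (-0.52), and *Loxl4* ranged from -0.21 to 1.23, called without replicate 4. The number of genes called was 1857 with DESeq2 and 2045 at 2000 UMIs. At 37°C it was 362 with DESeq2, 336 to 662 with a library left out, and 232 with *Col3a1* alone at 5000 UMIs, where *Loxl3* gave 1.56 and was called. For the difference between temperatures it was 58 with DESeq2 and 188 with at least 2 collagen UMIs, and *Loxl3* ranged from -0.025 to 0.93 with a library left out.

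Between tertiles at 37°C, DESeq2 called 1140 genes and lost *Loxl2* (1.17), and *Loxl1* lost its call without a filter (1.34) and ranged from 0.96 to 1.69 with a library left out, while *Loxl4* ranged from -0.097 to 0.019. At 39°C DESeq2 called 2125 genes and lost *Loxl1* (3.22) and *Loxl3* (1.15), *Loxl1* ranged from 3.71 to 4.44 (fitted against 0 counts, so no bound) and *Loxl4* from -0.20 to 0.44. For the difference between temperatures DESeq2 called 424 genes and *Loxl4* ranged from -0.17 to 0.47.

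Between phases at 37°C, DESeq2 called 2701 genes and lost *Loxl3* (-0.91) and *Loxl4* (-0.53), and at 2000 UMIs 2628 genes were called and both were lost again (-0.55 and -0.49). *Loxl4* also lost its call in G2M against G1 (-0.36). *Lox* became called with library totals (-0.19), at 2000 UMIs (-0.27) and without thinning (-0.21). With a library left out *Lox* ranged from -0.25 to -0.085, *Loxl3* from -0.95 to -0.84 and *Loxl4* from -0.62 to -0.44. At 39°C 2575 genes were called with DESeq2, 2455 at 2000 UMIs and 2066 in G2M against G1, where *Loxl3* turned negative (-1.92). At 2000 UMIs *Lox* (0.11) and *Loxl4* (0.40) turned positive and *Loxl1* (-1.65) and *Loxl3* (-0.16) negative, and without thinning *Lox* (-0.17) and *Loxl1* (1.49) became called.

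Scaling by library totals moved the higher and lower genes called from 394 and 224 to 279 and 296 in the collagen contrast at 37°C, from 46 and 70 to 91 and 36 for its difference between temperatures, from 520 and 663 to 695 and 473 for that of the tertiles, and from 1740 and 2411 to 2324 and 1617 between phases at 39°C. The majority also turned in 3 contrasts, from 2355 and 1891 to 2057 and 2251 between phases at 37°C, from 1357 and 1207 to 1195 and 1373 between tertiles at 37°C, and from 1699 and 1661 to 1639 and 1713 in the collagen contrast at 39°C. At 37°C and 5000 UMIs no fit was possible by the 3 collagen genes (nor without thinning), by any collagen gene, by at least 2 collagen UMIs or in G1 cells, nor at 39°C by any collagen gene or *Col3a1* alone, since fewer than 50 cells were left in a state. The same held at 2000 UMIs for any collagen gene and for G1 cells at 37°C, and for *Col3a1* alone at both temperatures. Where DESeq2 gave no adjusted p, no call was counted as lost. Depth limits *Loxl1* most, with 4 to 13 UMIs per library at 39°C.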
